A study of Oryza sativa with 3 samples.

Results

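Among 29689 rice loci on the array, 119 rose about 16-fold or more in roots exposed to vanadium, and these 119 raised loci are described here. They were chosen by the ratio itself. For every spot the local background was subtracted in both channels, and signals under 20 scanner units were set to 20. Then log2 of the vanadium signal over the water signal was taken, and each array was centred on its median over locus probes. Before centring these medians were -1.11, -0.40 and -0.57 on replicates 1, 2 and 3. Centring therefore raised every ratio, so the ratios given are higher than the printed signals alone would give. A locus, represented by its brightest probe, was taken when its mean log2 ratio over 3 arrays was 4 or more, when every array gave 3 or more, and when the water channel was well above background on at least 1 array. This rule held for 0.401% of all loci. The ratios below are therefore a description of the chosen loci, with no test, and their size supports nothing beyond the choice.

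The samples were roots of 6-day-old seedlings of Oryza sativa, cultivar TN-67, exposed to 1 mM V, against roots of the same age and cultivar exposed to water. There were 3 biological replicates of each treatment, and each array carried the vanadium RNA in Cy5 (red) and the water RNA of the same replicate in Cy3 (green). The dyes were not swapped, so a dye effect that is particular to a probe cannot be told apart from the treatment. The labels give neither the exposure time, nor the chemical form of vanadium, nor the number of seedlings in a replicate.

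Vanadium is a transition metal, and in its oxidised form, vanadate, it resembles phosphate and can occupy the phosphate site of enzymes such as ion-pumping ATPases and phosphatases. Plant roots meet metals first, and known root responses to toxic metals include transport out of the cell, detoxification by conjugation, alternative routes of respiration and the transcription factors and hormone signals shared with wounding and defence. A locus number of rice gives the chromosome in the digits before the letter g and the order along it in the digits after, so it places a gene without saying what the gene does. The files pair no locus with a gene name or description, and of the 119 raised loci 0 were found in the reference table by locus number and 0 by the accession of their probe. Loci are therefore given by number, for a few chosen by position, size or spread, and gene families only as lists.

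By the rule's ratio the largest rise was at Os04g0203600, with a mean log2 ratio of 8.10 ± 0.30 (SD, n = 3 arrays), about 275-fold after centring. Its background-subtracted signal was 25343, 37639 and 28150 scanner units in vanadium roots of replicates 1, 2 and 3, against 156, 205.5 and 169.5 in water roots. All vanadium values lay far above all water values, but the scanner software counted the water spot as detected (well above background) on only 2 arrays, so part of the fold rests on a signal close to the limit of detection. In these whole roots, more cells that make a transcript and more transcript per cell cannot be told apart.

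The second was Os04g0206600, at 7.90 ± 0.37 (SD, n = 3 arrays). It gave 15433, 28089 and 20755 units in vanadium roots and 104, 185 and 146 in water roots, again with water detected on 2 of 3 arrays. The scanner software marked its vanadium spot on replicate 1 as uneven, and the mean of the other 2 arrays was 7.68. In the authors' deposited table the order of these loci was the other way round, with 8.86 for Os04g0206600 and 8.73 for Os04g0203600.

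Below these the values fell off quickly. Of the 119 loci, 3 had a mean log2 ratio of 7 or more, 7 lay between 6 and 7, 24 between 5 and 6, and 85 between 4 and 5. The median was 4.56, about 23.6-fold, whereas the median over all loci was -0.04 on the same log2 scale. The plot of ratios by rank shows this as a short steep start and a long shallow tail.

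**Figure D1:**
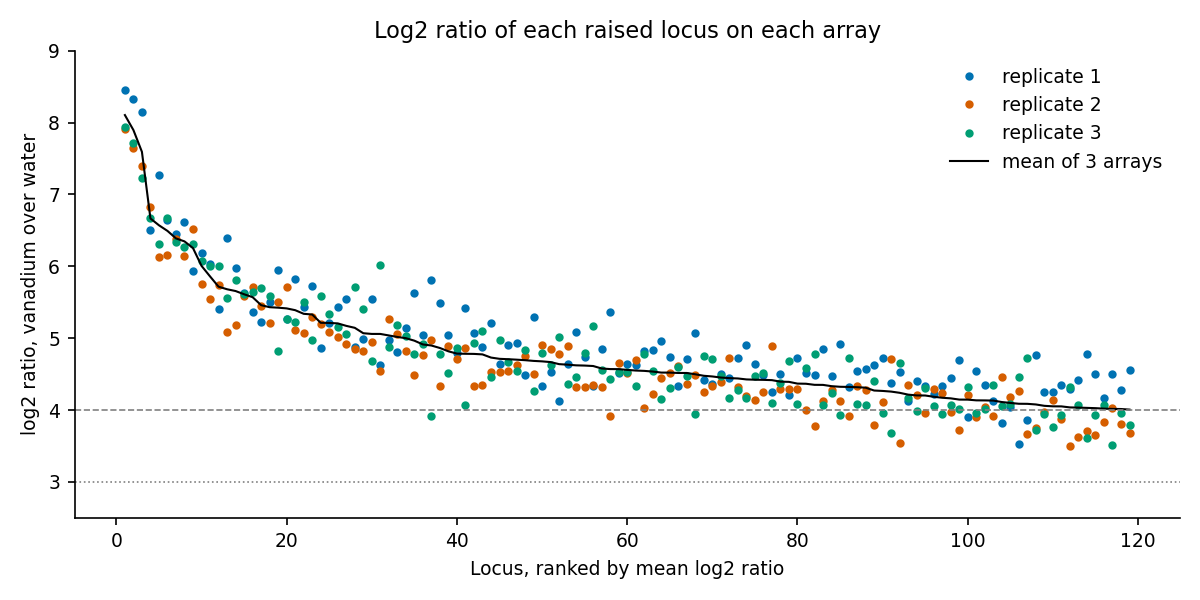
Log2 ratio of vanadium over water (vertical axis) for the 119 raised loci in order of their mean (horizontal axis), with 1 point per array and the mean of 3 arrays as a line. The dashed line at 4 and the dotted line at 3 mark the limits of the rule for the mean and for a single array. The first 3 loci stand above 7, and the line runs from 5 down to 4 over the last 85 loci.

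The boundary at a log2 ratio of 4 fell within a continuous run of values. The lowest 3 chosen loci had means of 4.02, 4.01 and 4.01, and the next 3 loci with water detected on at least 1 array had means just under 4, of 3.99 and of 3.98. The locus nearest above the limit, Os10g0543400, had 4.55, 3.67 and 3.79 on replicates 1, 2 and 3. Its signals were 1176, 1596.5 and 1245 units in vanadium roots, against 108, 165 and 133.5 units in water roots. Its mean was 5.12 in the authors' deposited table. Within 0.1 of the limit there were 15 loci inside and 12 outside. A further 14 loci had a mean of 4 or more, up to 5.54, but a water channel that was never well above background, and they were left out by the rule.

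All 119 raised loci were well above background in vanadium roots on all 3 arrays. In water roots the signal was well above background on 3 arrays for 87 loci, on 2 arrays for 20 and on 1 array for 12. No spot on any array was saturated. The vanadium signal of the raised loci had medians of 3607, 5599 and 5106 units on replicates 1, 2 and 3, and the water signal had medians of 232, 275 and 255.

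Nearly all water values lay above what the array read where no rice transcript binds, though that reading was not 0. The rule asked for water well above background on at least 1 array, so this follows in part from the choice of loci. After background subtraction the median of the 153 negative control spots was 3, 4.5 and 4 units in the vanadium channel, and 52, 97 and 93 units in the water channel. Of the raised loci 0, 1 and 0 had a water signal at or below the 95th percentile of these spots on replicates 1, 2 and 3. With these medians subtracted as well, an alternative chosen with the data already in view, the median log2 ratio of the 119 loci was 4.73 in place of 4.56. The setting of 20 units for low signals was reached by 0 of the 119 loci on any array.

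**Figure D2:**
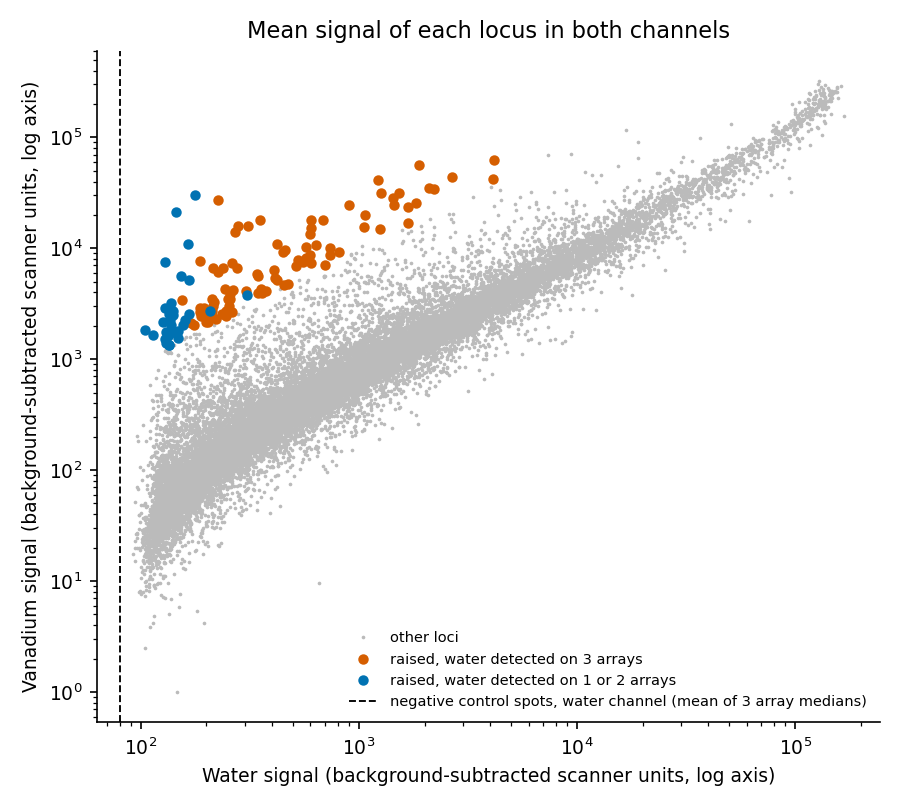
Mean signal over 3 arrays in vanadium roots (vertical axis) against water roots (horizontal axis), both background-subtracted in scanner units on log axes, for loci with water detected on at least 1 array. Raised loci are coloured by the number of arrays with water detected (87 on 3 arrays, 32 on 1 or 2), other loci are grey, and the dashed line is the mean of the 3 array medians of negative control spots in the water channel. The 32 loci of the second colour have mean water signals of 104 to 307 units, all right of that line.

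The brightest water signal of a raised locus was at Os01g0510200, where the fold does not rest on a dim control. It gave 27149, 73460 and 85763 units in vanadium roots and 2855, 4815 and 4854.5 units in water roots. Its log2 ratio was 4.36, 4.33 and 4.71 on replicates 1, 2 and 3, although both signals were lower on replicate 1 than on the others.

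Replicates gave similar but not equal ratios. The SD over arrays of a raised locus had a median of 0.28 and ran from 0.03 to 0.95, compared with a median of 0.19 over the 22598 loci with water detected on at least 1 array. On 86 of the 119 loci every array gave 4 or more, and the lowest value on any array was 3.51. The largest spread was at Os01g0677000, with 5.81, 4.97 and 3.91 on replicates 1, 2 and 3. It had 2420, 4189 and 1535.5 units in vanadium roots and 93, 176 and 151.5 units in water roots, and water was detected on 2 of 3 arrays. Its mean was 4.90 by the rule's ratio and 5.95 in the authors' deposited table.

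Replicate 1 tended to give the highest ratio. It was the highest of the 3 arrays at 70 loci, replicate 2 at 18 and replicate 3 at 31, and the medians over all 119 were 4.73, 4.46 and 4.55. The gap was wider at the 32 loci with water detected on 1 or 2 arrays, where the medians were 4.89, 4.32 and 4.56 and replicate 1 was highest at 24. At the 87 loci with water detected on every array they were 4.64, 4.50 and 4.55, and replicate 1 was highest at 46. Replicate 1 lay on slide 1 and the others on slide 2, and the negative control spots of its water channel were the lowest of the 3 arrays. It was also shifted most by centring, from a median of -1.11, against -0.40 and -0.57 on replicates 2 and 3. The part of slide, negative control level and centring in the gap was not tested.

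**Figure D3:**
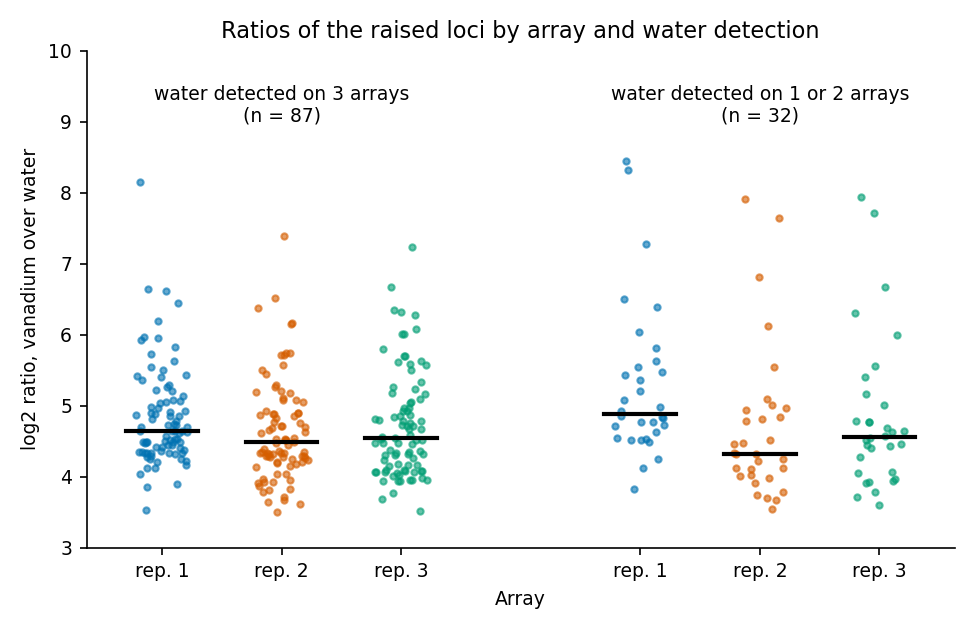
Log2 ratio of vanadium over water (vertical axis) of each raised locus on each array, for 87 loci with water detected on 3 arrays at left and 32 loci with water detected on 1 or 2 arrays at right. Points are loci and bars are medians, which stand at 4.64, 4.50 and 4.55 at left and at 4.89, 4.32 and 4.56 at right.

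The standard two-colour fit over all loci (background corrected by normexp, loess within each array, then limma's moderated test with Benjamini-Hochberg adjustment) held 113 of the 119 loci, and the other 6 had a spot marked as uneven, which the fit left out. A further locus with such a spot, Os09g0555500, named for this reason after its values were seen, was held through a different probe, with a log2 ratio of 1.97 in the fit against 4.24 for its chosen probe. All 113 were called higher under vanadium at an adjusted p under 0.05. Of all 21096 loci tested, 29.7% were called higher, which is 6273 against 4497 called lower. That split differed between settings that change background treatment and scaling at once, with 8961 higher and 3268 lower for ratios with the setting of 20 units and median centring, and 4884 higher and 6903 lower with the scanner's own log ratio. Since the loci were chosen by the same contrast, nothing follows from this count. On the scale of that fit their median log2 ratio was 4.13, and the median standard error was 0.12, against 0.09 over all tested loci.

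Several probes for one gene show how far a ratio belongs to the locus rather than to 1 probe. Of the 119 loci, 91 had a single probe and 28 had between them 37 further probes. These further probes measure the same contrast, so they are described without a test. Their median log2 ratio was 4.24. Of the 37, 23 had a ratio of 4 or more, compared with 0.403% of all 41889 locus probes, and 26 had 3 or more, compared with 1.08% of all. The difference from the brightest probe was under 0.5 for 24 of them. Of the 37, 4 exceeded the brightest probe, but only the brightest probe had to reach 4 for the locus to be chosen.

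In 11 cases a further probe differed from the chosen one by more than 1, and in all of them the further probe was the lower. At Os09g0417600, named after its values were seen, all 3 further probes were lower. They differed from the chosen probe's 4.09 by -2.04, -1.90 and -1.58, with water detected on 3, 1 and 1 arrays. At Os02g0630300, named for the same reason, the difference was -3.19, with water detected for the further probe on 1 array. At 3 other loci, picked out after their values were seen, a further probe had a mean log2 ratio under 1. At Os03g0724700 the chosen probe gave 5.07 ± 0.30 and another gave 5.06 ± 0.59, while the remaining probe gave 0.36 ± 0.10 (SD, n = 3 arrays each). That remaining probe was well above background in both channels on all 3 arrays, with 321, 590.5 and 504 units in vanadium roots and 502.5, 651 and 582 units in water roots. The other probes were dim in water roots, where the chosen one was detected on 1 array and the one at 5.06 on 0. So the probes of this locus differed although all carry the same locus number.

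At Os08g0374600, the fifth largest rise, the chosen probe had 6928, 8473 and 6936 units in vanadium roots and 96.5, 160 and 129.5 units in water roots. The file places that probe in a transcript part of 5′ UTR and coding sequence. A second probe, placed in coding sequence and 3′ UTR, had 91.5, 127 and 116 units in vanadium roots and 47, 129 and 125 units in water roots. That second probe was detected in vanadium roots on 3 arrays and in water roots on 0, and the chosen one in water roots on 1. The second probe's mean log2 ratio was 0.97 ± 0.95, against 6.57 ± 0.62 for the chosen probe (SD, n = 3 arrays each). At Os02g0671100 a second probe gave -1.48 ± 0.84 and was not well above background in either channel on any array, so it measured nothing that could be set against the 4.16 ± 0.25 of the chosen one (SD, n = 3 arrays each).

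**Figure D4:**
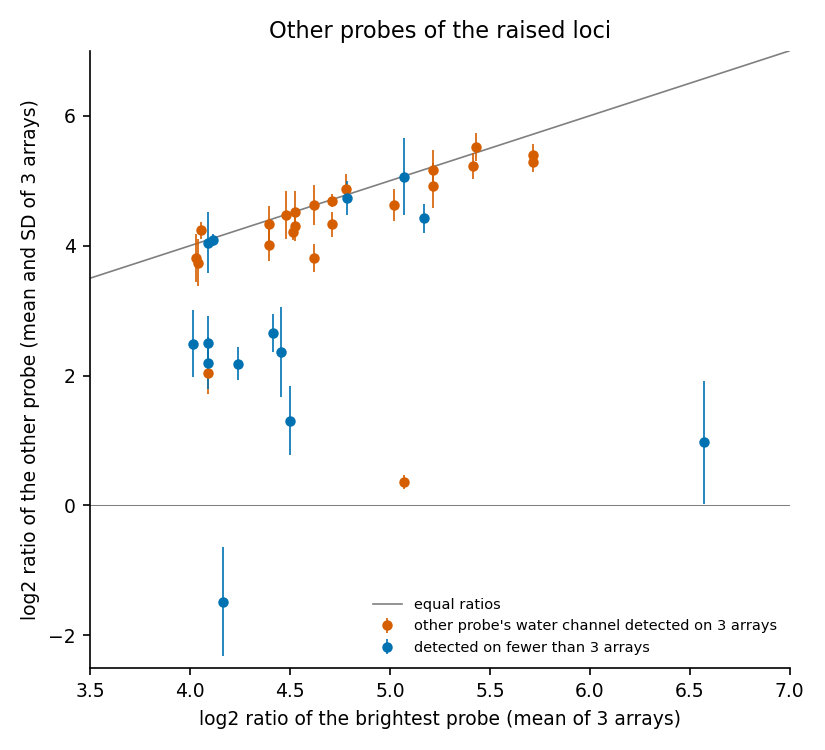
Mean log2 ratio of each of the 37 further probes, with its SD over 3 arrays (vertical axis), against the mean of the brightest probe of the same locus (horizontal axis). Colours separate further probes with water detected on 3 arrays from the rest, and the line marks equal ratios. Most points lie on or just under the line, and 3 lie below 1.

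The raised loci came from all 12 chromosomes, 20 of them on chromosome 1, 17 on chromosome 3, 14 on chromosome 2 and between 5 and 11 on each of the others. As a share of the loci on a chromosome with water detected on at least 1 array, this was lowest on chromosome 5, at 0.323%, and highest on chromosome 9, at 0.743%. Over all such loci it was 0.527%. The evidence label of the chosen probe was mRNA at 82 raised loci (68.9%), compared with 73.1% of all loci with water detected. Of the rest 33 rested on predictions with EST support and 4 on other predictions.

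Some raised loci were direct neighbours. In 6 pairs, 12 loci in all, no other locus of the array lay between the members. Allowing a gap of up to 1000 in locus number, 22 of the 119 loci fell into 10 groups, of which 8 held 2 loci and 2 held 3. Cross-hybridisation between neighbouring loci was not tested.

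Within the pairs the sizes were sometimes alike and sometimes not. Os01g0609300 had a mean log2 ratio of 5.72 ± 0.30, with 27677, 48692 and 46623 units in vanadium roots against 1412.5, 1200 and 1076 in water roots. Its neighbour Os01g0609200 had 4.18 ± 0.12 (SD, n = 3 arrays each), with 4418.5, 10775 and 10899 units against 512, 728.5 and 976.5. The 2 loci thus differed by 1.53 on the log2 scale, and their ranges over arrays did not overlap.

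Os04g0600300 had 5.43 ± 0.19, with 3708, 8250 and 7902 units in vanadium roots against 177, 293 and 245 in water roots. Its neighbour Os04g0600200 had 4.39 ± 0.25 (SD, n = 3 arrays each), with 4672, 8888 and 9088 units against 544.5, 601 and 526. Here too the ranges over arrays did not overlap: the lowest value of the first was 5.22 and the highest of the other was 4.68.

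Os03g0437200 had 5.17 ± 0.33 and its neighbour Os03g0437100 had 4.03 ± 0.65 (SD, n = 3 arrays each). On replicates 1, 2 and 3 the first gave 14604, 15369 and 10035 units in vanadium roots and 677, 670 and 448 in water roots. The other gave 1358.5, 1583.5 and 1113.5 units in vanadium roots and at most 160 in water roots, with water detected on 2 of 3 arrays. Its SD was the largest of the 12 paired loci. For the chosen probes the ranges over arrays of the pair did not overlap, with 4.92 the lowest of the first and 4.77 the highest of the other. A further probe of Os03g0437200 gave 4.68, 4.31 and 4.27, which lies within the range of Os03g0437100, 3.61 to 4.77. The separation of this pair thus depended on the probe. In the authors' deposited table the order of this pair was the other way round, with 4.91 for Os03g0437200 and 5.03 for Os03g0437100.

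The other 3 pairs were closer. Os03g0180800 and Os03g0180900 had 4.70 ± 0.20 and 4.35 ± 0.51. The second of them varied with its water signal, which was 1042, 1998 and 730 units beside 10840.5, 20867 and 13516.5 in vanadium roots. Os06g0725200 and Os06g0725100 had 4.68 ± 0.30 and 4.58 ± 0.27, and Os01g0699600 and Os01g0699500 had 4.31 ± 0.25 and 4.15 ± 0.50 (SD, n = 3 arrays each). In each of these 3 pairs the ranges over arrays overlapped.

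A stretch of chromosome 4 held both largest rises. Between Os04g0203600 and Os04g0206600, 3000 apart in locus number, the array had 17 loci, and another raised one lay among them, Os04g0204100, named here after its values were seen. It stood ninth of the 119 with 6.25 ± 0.30 (SD, n = 3 arrays), from 9112, 23730 and 20814 units in vanadium roots and 322, 343 and 387.5 in water roots. The other 14 loci of the stretch had mean log2 ratios from -1.52 to 2.79 with a median of -0.42, and 2 of them were at 1 or more. The rise was thus uneven along the stretch. Of the 14, 6 had a water channel that was never well above background, and the 2 loci at 1 or more were among these. The median of -0.42 thus includes spots near background. The loci of the 14 detected in both channels on all 3 arrays were at 0.74, 0.85, 0.71 and -0.03. The highest of the 14 with water detected on at least 1 array was at 0.85.

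Loci next to a raised locus were also looked at as a group. There were 223 direct neighbours that were not raised loci themselves, and 164 of them had water detected on at least 1 array. Of these 164, 38 (23.2%) had a mean log2 ratio of 1 or more, compared with 11.8% of all 22479 such loci below the rule. At 2 or more there were 18 (11.0%), compared with 3.18%, and at 3 or more 8 (4.88%), compared with 0.885%. Their median was 0.32, compared with 0.18. These are counts of loci, which are not independent, and no test was made.

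**Figure D5:**
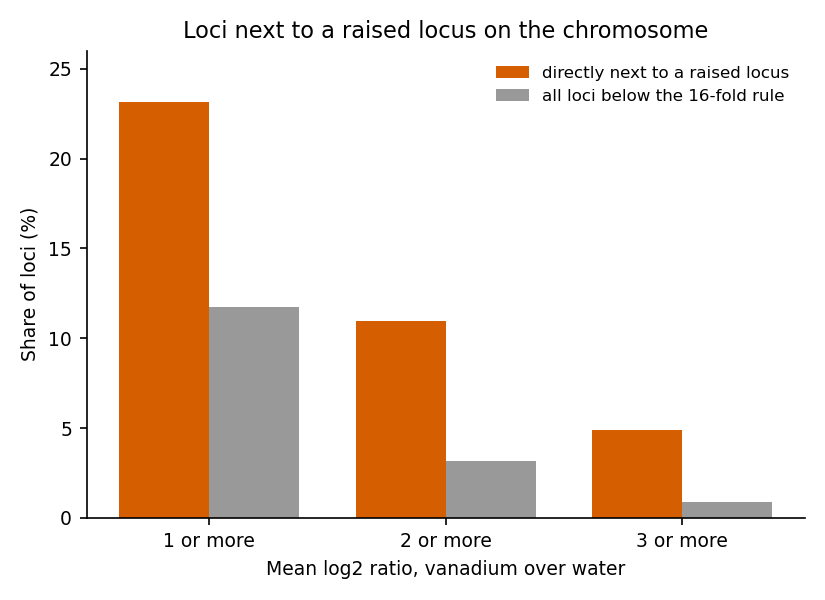
Share of loci (vertical axis, %) at a mean log2 ratio of at least 1, 2 or 3 (horizontal axis), for the 164 loci directly next to a raised locus and for all 22479 loci below the 16-fold rule, both with water detected on at least 1 array. The shares are 23.2% and 11.8% at 1, 11.0% and 3.18% at 2, and 4.88% and 0.885% at 3.

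Gene families were followed with 9 lists of locus numbers written from general knowledge, 52 loci in all. As a check, 38 of 64 symbols recalled for these and for the marker loci stood in the reference table, and all 38 were on the chromosome that the locus number gives. The check was uneven: 0 symbols were found for the PDR and C2H2 lists, 1 for the alternative oxidases and 4 for the 14 WRKY loci, so those lists rest mostly or wholly on recall. The lists held 11 of the 119 raised loci, so 108 belong to none. Of the 6 pairs of direct neighbours, 3 had both loci in the same list. The counts below are over listed loci with water detected on at least 1 array. Of all 22598 such loci, 12.2% had a mean log2 ratio of 1 or more and 7.39% had -1 or less.

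Regulators of transcription were listed in 4 groups. Of 14 loci listed as WRKY factors, which bind promoters of defence and stress genes, 3 were raised loci, and of the 12 with water detected 10 were at 1 or more, with a median of 3.12 and a range from 0.68 to 4.78. Of 4 loci listed as stress NAC factors 1 was a raised locus, and all 4 lay between 2.35 and 4.79. Of 5 loci listed as C2H2 zinc finger factors of the stress response 1 was a raised locus, the highest of the list at 5.17, with a median of 2.06 over the 5. None of 5 loci listed as DREB factors, regulators of the drought and cold response, was a raised locus, and their range was -0.0028 to 1.90 with 2 of 5 at 1 or more.

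Hormone pathways were listed in 3 groups. Of 8 loci listed as JAZ proteins, which repress the response to jasmonate and are themselves induced by it, 2 were raised loci, and all 8 lay between 1.55 and 4.70 with a median of 3.09. None of 5 loci listed for enzymes of jasmonate synthesis was a raised locus, and the 4 with water detected lay between 1.05 and 2.46. None of 5 loci listed for ethylene synthesis was one either, with a range from -0.40 to 3.01 and 1 of 5 at 1 or more.

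The last 2 lists concern transport and respiration. Of 3 loci listed as PDR transporters, pumps of the plasma membrane that export many compounds, 2 were raised loci, with 2.18, 4.18 and 5.72 over the list. Of 3 loci listed as alternative oxidases, which pass electrons to oxygen in mitochondria without pumping protons, 2 were raised loci, with 2.02, 4.39 and 5.43 over the list. None of the 49 listed loci with water detected was at -1 or less. The lists are short and were written with results of these data known, so they show where raised loci fall and not how common a family is among them.

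The labelled tissue was checked in the same way. All 3 loci listed as root markers were detected in both channels on all 3 arrays. All 5 loci listed as markers of green shoot were well above background in water roots on at least 1 array, and 1 of them on all 3 arrays. In vanadium roots 2 of the 5 were well above background on all 3 arrays. Their mean signals were 37.7 to 137 units in vanadium roots and 131 to 716 in water roots. Of 4 loci listed for storage proteins of the grain, none was well above background in any water channel, and signals were at most 24.8 units in vanadium roots and 127 in water roots. None of these 12 marker loci was a raised locus. The root markers were not even between treatments, with ratios from -1.59 to 1.66 and a median of -0.86. The shoot markers had a median of -1.04 with 3 of 5 at -1 or less, but at dim signals. Negative control spots read 52, 97 and 93 units in the water channel against 3, 4.5 and 4 in the vanadium channel. A probe detected in neither channel, the second of Os02g0671100, gave -1.48. A low ratio of a dim locus therefore need not mean less transcript. The part of tissue makeup in the ratios of the raised loci was not tested.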

How the data were processed

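Arrays were read as deposited by the authors. Per the file headers they came from Agilent Feature Extraction 10.7.1.1, and hold intensity of spot and local background in both channels, a processed intensity, flags, and the software's log10 ratio of the Cy5 to the Cy3 channel. Per the labels, vanadium RNA was Cy5 and water RNA Cy3. A value table deposited by the authors is on a log2 scale. At all 41865 probes with 1 spot it matched, within 0.001, the log2 ratio of Cy5 to Cy3 processed intensity, and its column medians of -0.05, -0.19 and -0.21 show that it was not centred on the median.

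Membership was computed from median signals in Python 3.11.15. The fit used normexp with offset 50, loess and limma 3.58.1 in R 4.3.3, with outlier spots left out, probes kept if well above background in either channel on all 3 arrays, and the brightest kept probe per locus. The pairing comes from both RNAs of a replicate sharing an array. The script was tested on simulated data. Members and lists were chosen with earlier results of these data known. Locus numbers are named by the rule of 2 largest rises, nearest to the threshold, largest spread, brightest water signal and direct neighbours, and by exceptions named as such. Between 29261 and 32246 of 41889 locus probes per array and channel were well above background. With 3 arrays, their number limits the precision, and the spread between them is all that an SD measures.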

Additional observations from a re-analysis of the deposited data

How the results depend on the processing

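The count of 119 loci differed between settings. It was 77 with signals under 100 units set to 100, which also shifted the array median used for centring and so lowered bright loci too (Os01g0510200 had 4.06 in place of 4.47), and 70 with normexp and loess. It was 147 with the scanner ratio centred and 146 with it uncentred or with the authors' deposited table, each sharing 108 loci with the 119, and 87 when water had to be detected on every array. With the median of negative control spots also subtracted, an alternative chosen after seeing the data, it was 136, again sharing 108. Leaving out 1 replicate gave 99 to 125 loci. The median log2 ratio of the loci was 4.14 with the setting of 100 units, 4.13 with normexp and loess, 4.81 with the scanner ratio after centring, 4.80 without centring and in the authors' deposited table, 4.73 with negative controls subtracted, and 4.48 to 4.59 without 1 replicate. Under the other settings it moved by less than the SD of 0.14 between arrays. Of 214 values for the 17 loci named by rule, 159 moved by less than the SD over arrays of their locus and 55 by that SD or more. They ran from 3.60 to 8.88. That 0 changed sign says nothing, since the loci were chosen for large ratios on these same arrays. The middle of the array medians over all loci was -0.20 in the authors' deposited table, against -0.03 for the centred ratios.

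In the limma fit 113 to 117 raised loci and 4957 to 5717 of all loci were called higher without 1 replicate. Without the pairing of both RNAs on an array, 3369 of all loci were called higher, against 6273 with it, and 113 raised loci in either. Requiring both channels above background on every array left 84 raised loci tested and 83 called, and dropping the filter gave 113 of 114. These settings can hold a locus through a probe other than the chosen one. The first held Os03g0724700 only through its probe at 0.36 by the rule's ratio. The second held Os02g0671100 only through its undetected probe at -1.48. With slide as a block 6716 loci and 113 raised loci were called. Water was not well above background on every array for 32 of the 119 loci. They include the 5 loci named by rule (Os01g0677000, Os03g0437100, Os04g0203600, Os04g0206600 and Os10g0543400) whose ratio moved by over 1.5 times in the authors' deposited table.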
